A study of Mus musculus with 80 samples.

Results

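Inguinal white adipose tissue (iWAT) of mice lacking both UCP1 and FGF21 (dKO) was compared with iWAT of wildtype (WT) mice. UCP1 is the mitochondrial protein through which brown and beige fat cells turn stored fuel into heat, and FGF21 is a hormone that acts through FGF receptors and the co-receptor beta-klotho. In inguinal fat, cold or loss of UCP1 can recruit beige cells with many mitochondria, a change called browning, and the comparison asks what is left of the response to UCP1 loss when FGF21 is missing too. The members are 10 of the 80 libraries of the series, all 5 iWAT libraries of dKO and all 5 of WT, picked by their tissue and genotype labels. Another 5 iWAT libraries each of UCP1 KO and FGF21 KO mice entered the model and are quoted where they show how dKO differs. All mice were homozygous males on a C57BL/6J background that had been bred and raised at 30 °C. At 10 to 12 weeks of age they were moved to room temperature and given high-fat diet for 3 weeks, so WT and dKO shared the cooler housing and the diet. Both deletions were inherited, the dKO line having been bred from UCP1 KO and FGF21 KO mice, and the genotype label of the dKO libraries reads "UCP1/FGF12 double KO".

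The counts of the deleted genes were read first. Fgf21 (chromosome 7, 45613886 to 45615490, GRCm38) had 0 counts in each of the 5 dKO libraries and 2 to 11 in WT, and both groups are too close to 0 for a fold change. Levels are given in CPM, counts per gene relative to the TMM-scaled library size. Fgf12, the gene named in the label, had 0.049 to 0.314 CPM in dKO and 0.0554 to 0.27 CPM in WT, too few counts to be tested. So the counts go with the loss of Fgf21 and not with that of Fgf12. Ucp1 (chromosome 8, 83290352 to 83298452) was still counted in the dKO libraries, at 4.004, 17.3, 22.4, 29.1 and 24.5 CPM, against 4.54, 4.30, 9.47, 16.7 and 2.64 CPM in WT. The 2 groups overlapped (log2 fold change 1.37, 95% interval -0.79 to 3.52), and since the counts do not say which exons were read, they do not check the label. The dKO libraries held 37425840 to 44726914 counts on genes and the WT libraries 36788474 to 44683908.

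The 8 adipocyte markers, among them Adipoq and Plin1, were abundant in all 10 libraries, with summed levels of 10850 to 27270 CPM in dKO and 14340 to 27820 CPM in WT. The 8 lymph node markers of B and T cells divided the libraries. Their score, the mean log2 of CPM plus 0.1, was 6.4 and 6.85 in WT 4 and WT 5 and 7.23 in both dKO 1 and dKO 3, and at most 1.68 in the other 6 libraries. Each genotype thus had 2 libraries with lymph node RNA and 3 without, and the gene lists and the genes named by the rule were also tested in these 3 against 3 libraries. The summed skeletal muscle markers ran from 22.0 to 9199 CPM in WT and from 33.2 to 689 CPM in dKO. Epithelial keratins and Epcam summed to 22.5 CPM in dKO 3 and 36.6 CPM in dKO 4, against at most 2.21 CPM in the other dKO libraries and 1.89 CPM in WT, and 2 of the 3 such markers tested were higher in dKO at an unadjusted p under 0.05. Fits with the lymph node score or the skeletal muscle score as a covariate are given below, and the part of epithelial cells in the results was not tested. In whole tissue, fewer cells of a type and less RNA per cell cannot be told apart.

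Few genes were called between iWAT of dKO and WT. Of 17380 genes tested with edgeR's quasi-likelihood test, 3 (0.0173%) were called at a Benjamini-Hochberg adjusted p under 0.01: Cacna1a was higher in dKO, and Mri1 and AK049852 were lower. DESeq2 called 16 (0.0921%), 14 of them higher in dKO and among them all 3. At an unadjusted p under 0.05, 548 genes (3.15%) were higher and 479 (2.76%) lower in dKO. The 5 dKO libraries and the 5 WT libraries did not overlap for 203 genes (1.17%), of which 114 (0.656%) were higher in dKO. In the same fit 106 genes (0.61%) were called between UCP1 KO and the same WT libraries, 81 (0.466%) between UCP1 KO and dKO, and 2 (0.0115%) between dKO and FGF21 KO.

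The genes of browning, which mark beige cells, were not called in dKO, and their estimates depended on the libraries used. Of the 24 genes listed, 0 were called between dKO and WT by edgeR or DESeq2. Their median log2 fold change was 0.11 against 0.02 over all genes, and at an unadjusted p under 0.05 there was 1 higher (Elovl3) and 1 lower (Ebf2). The number higher moved with the setting. It was 4 in DESeq2, 5 without WT 4, 4 without dKO 1, and 0 without WT 3, WT 5 or dKO 4. The shares of all genes were 4.15%, 3.31%, 3.55%, 2.26%, 4.38% and 3.81% in that order. The dKO and WT libraries overlapped for all 24. In the 10 dKO and WT libraries alone, 22 of the 24 passed the count filter, with a median of 0.11. The rest were tested only through the counts of the other genotypes, so their lack of a call says little. In UCP1 KO against the same WT libraries the median was 3.16 with 15 of the 24 called, beside 0.61% of all genes, and UCP1 KO exceeded dKO with a median of 3.03 and 11 called, beside 0.466%. In dKO against FGF21 KO the median was 0.89, beside -0.001 over all genes, and none of the 24 was called. FGF21 KO held 4 libraries with lymph node RNA and dKO 2, and the part of that difference was not tested. The list was written with the browning of UCP1 KO iWAT already known, so the UCP1 KO values are a yardstick and not a finding.

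Cox7a1, a subunit of cytochrome c oxidase found in beige and brown fat, had 4.54, 5.66, 4.93, 10.2 and 24.7 CPM in WT and 3.04, 8.08, 7.71, 15.2 and 10.9 CPM in dKO. The groups covered the same range, and the log2 fold change was -0.16 (95% interval -1.45 to 1.13, edgeR adjusted p = 0.999). Cox7a1 is also expressed in muscle, and its 2 highest WT values came from WT 5 and WT 4, which held the most skeletal muscle RNA in WT, a summed 9199 and 836 CPM against 22.0 to 71.5 CPM in the others. Without WT 5 the log2 fold change was 0.50, and with the skeletal muscle score as covariate 0.33, neither of them called. All 5 UCP1 KO libraries lay higher, at 34.2 to 223 CPM, and UCP1 KO exceeded dKO by a log2 difference of 3.72 (edgeR adjusted p = 0.00855). Skeletal muscle markers summed to 19730 CPM in UCP1 KO 1, 390.5 CPM in UCP1 KO 5 and 34.9 to 43.1 CPM in the other UCP1 KO libraries. The part of muscle RNA in that difference was not tested. Ppara, the nuclear receptor for fatty acids, also lay highest in UCP1 KO, with 11.7 to 24.7 CPM in WT, 6.84 to 26.5 CPM in dKO and 70.0 to 376 CPM in UCP1 KO. Letmd1, a mitochondrial inner membrane protein, gave one of the narrowest intervals of the list, -0.50 to 0.63 for dKO against WT, beside a log2 fold change of 2.28 in UCP1 KO. For 8 of the 24 genes the upper bound of dKO against WT was below 1, a doubling, and for 17 it was below 2.

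Other browning genes had their estimates above WT without passing the test. Elovl3, an elongase of very long fatty acids that is switched on in cold-exposed fat, had 0.609, 0.635, 0.485, 0.928 and 0.388 CPM in WT and 0.368, 1.67, 3.92, 6.25 and 1.201 CPM in dKO. Of the dKO libraries, 4 were above every WT library and dKO 1 was below them all (log2 fold change 2.13, 95% interval 0.26 to 4.0, edgeR adjusted p = 0.78). UCP1 KO libraries held 56.6 to 426 CPM, and their difference from dKO was called (6.26 on the log2 scale, edgeR adjusted p = 0.00394). Dio2, which makes active thyroid hormone inside the cell, had 0.499 to 2.27 CPM in WT and 0.735, 2.01, 1.59, 3.01 and 7.88 CPM in dKO (log2 fold change 1.38, interval -0.05 to 2.81). Cidea, a lipid droplet protein of brown and beige fat, had 9.14 to 45.5 CPM in WT and 10.2 to 68.4 CPM in dKO (1.02, -0.39 to 2.42). P2rx5, a purinergic receptor on the surface of brown and beige adipocytes, had a log2 fold change of 0.64 (-0.04 to 1.33), and Otop1, a proton channel, one of 1.37 (-0.03 to 2.77). None of these 5 genes was called. The forest plot sets both knockouts side by side for the whole list.

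**Figure D1:**
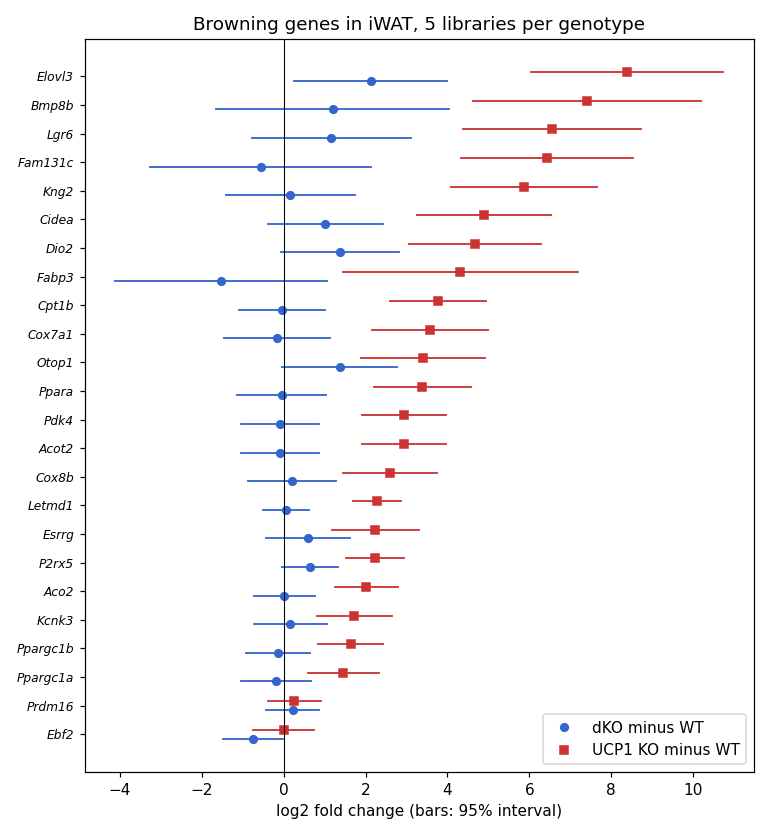
Log2 fold changes (x axis) with 95% intervals of the 24 browning genes (y axis) in iWAT, for dKO minus WT (blue circles) and UCP1 KO minus WT (red squares), which share the 5 WT libraries. The dKO estimates lie between -1.52 and 2.13 around a median of 0.11, while the UCP1 KO estimates have a median of 3.16.

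These values moved when the libraries with lymph node RNA were left out. Among the 3 dKO and 3 WT libraries without it, the browning list had a median log2 fold change of 0.81, and 9 of the 24 genes were higher in dKO at an unadjusted p under 0.05, where the share of all genes was 8.59%. The 1 lower gene was Ebf2, a transcription factor of brown and beige precursors, which had the smallest p of the list, with 66.9 to 80.2 CPM in these WT libraries and 37.8 to 47.9 CPM in these dKO libraries (log2 fold change -0.73, 95% interval -1.03 to -0.42, edgeR adjusted p = 0.0939). For 11 of the 24 (45.8%) every such dKO library was above every such WT library, against 12.3% of all genes. Markers of other cell types also differed in this subset: the lymph node markers had a median of -1.16 with 4 of 8 lower at an unadjusted p under 0.05, the epithelial markers one of 5.13 with 3 of 3 higher, and the erythroid markers one of 0.76 with 3 of 3 higher. The epithelial difference came from dKO 4 alone, with a summed 36.65 CPM. Libraries dKO 2 and dKO 5 held 0.145 and 0.140 CPM, below the 0.173 to 0.637 CPM of these WT libraries. The part of all these markers in the browning values was not tested. Cidea had 9.14 to 19.3 CPM in these WT libraries and 40.9 to 68.4 CPM in these dKO libraries, a log2 fold change of 1.92 (95% interval 0.91 to 2.92, edgeR adjusted p = 0.173). Cox8b, a cytochrome c oxidase subunit of brown and beige fat, had at most 36.7 CPM in these WT libraries and at least 50.7 CPM in these dKO libraries (0.95, 0.47 to 1.43, edgeR adjusted p = 0.156), and Otop1, Dio2, Elovl3, P2rx5, Cox7a1, Cpt1b and Kcnk3 were the other 7 genes. Cox7a1 turned from -0.16 over all libraries to 1.18 here, in a subset that also lacks WT 4, WT 5 and dKO 1, the libraries with the most skeletal muscle RNA of the 10. Dio2 had at most 0.808 CPM in these WT libraries and at least 2.01 CPM in these dKO libraries (2.64, 0.82 to 4.46, edgeR adjusted p = 0.259). Ucp1, which is not on the list, had a log2 fold change of 1.96 here (edgeR adjusted p = 0.156). For it, too, every such dKO library was above every such WT library. None of the 24 was called in this subset, in which 1 gene was called over all genes. In the same 3 dKO libraries against 4 UCP1 KO libraries without lymph node RNA the browning median was 2.94 higher in UCP1 KO. In the libraries with lymph node RNA the order differed, with Cidea at 45.5 and 9.64 CPM in WT and 10.2 and 32.0 CPM in dKO. With that score as a covariate over all 20 libraries the browning median was -0.07, so the estimate depends on how these libraries are treated.

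The lists of fuel oxidation had medians near 0 in dKO against WT over all libraries. The 71 genes of the respiratory chain and ATP synthase had a median log2 fold change of -0.03 in dKO, with single genes between -0.24 and 0.13, and for all 71 the upper bound was below 1. The same genes had a median of 0.90 in UCP1 KO against WT. The 17 genes of fatty acid oxidation had a median of 0.04 in dKO and 1.33 in UCP1 KO, and the 20 genes of the TCA cycle -0.03 and 1.27. Against FGF21 KO, which lacks FGF21 as well, the dKO medians were higher. They were 0.42 for the respiratory chain, 0.69 for fatty acid oxidation and 0.48 for the TCA cycle, beside -0.001 over all genes. FGF21 KO held 4 libraries with lymph node RNA and dKO 2, a difference whose part in these medians was not tested. Hadha, the alpha subunit of the mitochondrial trifunctional protein, had 305, 334, 302, 350 and 275 CPM in WT and 183, 342, 219, 386 and 459 CPM in dKO (log2 fold change 0.02, 95% interval -0.65 to 0.70). The dKO libraries spread around the WT libraries on both sides, with dKO 1 and dKO 3, which held lymph node RNA, the lowest. UCP1 KO libraries reached 511 to 2004 CPM and exceeded dKO by a log2 difference of 1.91 (edgeR adjusted p = 0.00677). None of these 108 genes had an unadjusted p under 0.05 between dKO and WT over all libraries. In the 3 against 3 libraries without lymph node RNA the median was 0.34 for fatty acid oxidation, with 3 of 17 genes higher at an unadjusted p under 0.05 (Acadm, Acads and Etfb), and 0.18 for the respiratory chain, with 5 of 71 higher (Uqcrq, Ndufb7, Uqcr10, Uqcr11 and Atp5k). None of these 8 genes, named after their values were seen, was called, and 8.59% of all genes were higher there. The TCA cycle had a median of 0.20 there with 0 genes at that p.

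The 25 genes of lipid synthesis, lipolysis and glycerol recycling had a median of 0.56 in dKO against FGF21 KO. Against WT the median was 0.08 in dKO and 0.75 in UCP1 KO, and 0 were called in dKO. Without the libraries with lymph node RNA the median in dKO was 0.20, with 4 of 25 higher at an unadjusted p under 0.05 (Gpd1, Plin5, Gk and Agpat2), 1 lower (Pck1) and 0 called, where 8.59% of all genes were higher. Gk, the glycerol kinase that lets a fat cell re-esterify its own glycerol, had 10.8 to 12.9 CPM in WT and 12.5, 27.2, 15.7, 19.9 and 27.6 CPM in dKO. The libraries overlapped through dKO 1 alone (log2 fold change 0.84, interval -0.00 to 1.68, edgeR adjusted p = 0.846), and the difference of UCP1 KO from dKO, 2.69, was called (edgeR adjusted p = 0.00338). Pck1, the cytosolic enzyme of glyceroneogenesis, had 2177 to 4411 CPM in WT and 1147 to 3541 CPM in dKO (-0.85, -1.63 to -0.06, edgeR adjusted p = 0.805). Among genes proposed for heat production without UCP1, Ryr2, a calcium release channel, had 0.637 to 1.86 CPM in WT and 3.35, 7.62, 4.2, 1.76 and 10.6 CPM in dKO. Only dKO 4 lay within the WT range, and the log2 fold change was 2.34 in dKO (edgeR adjusted p = 0.286, called by DESeq2) beside 2.10 in UCP1 KO. The 13 genes of that list had a median of -0.04.

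No gene of the hormone pathways was called. The 16 genes of FGF receptors and their feedback targets had a median of 0.01 with 0 at an unadjusted p under 0.05. Klb, the co-receptor that FGF21 needs, had 33.5 to 95.8 CPM in WT and 45.5 to 105 CPM in dKO. Dusp4, a phosphatase induced by ERK signalling, had 11.1 to 14.9 CPM in WT and 8.85 to 14.4 CPM in dKO (log2 fold change -0.17, 95% interval -0.75 to 0.41), and it was 1.5 higher in UCP1 KO than in dKO (edgeR adjusted p = 0.00969). The 16 adrenergic and cAMP genes had a median of 0.03 and the 14 insulin and glucose transport genes one of -0.13, and 0 genes of either list had an unadjusted p under 0.05. Without the libraries with lymph node RNA, 2 of 15 genes of the FGF list were higher at that p (Dusp5 at 1.84 and Etv4 at 1.23) and 3 of 16 adrenergic and cAMP genes (Adrb1, Adra1a and Prkar2b), beside 8.59% of all genes. These 5 genes are named after their values were seen, 0 of them were called, and the list medians were 0.02 and -0.04. Of the insulin and glucose transport genes, 1 was higher and 1 lower there. Gdf15, a stress-induced hormone, had 0.166 to 0.654 CPM in WT and 0.490 to 1.00 CPM in dKO (0.94, -0.10 to 1.97). Lep, which encodes the fat cell hormone leptin, had 734, 843, 655, 248 and 106 CPM in WT and 1212, 3171, 613, 482 and 3055 CPM in dKO. Of the dKO libraries, 3 were above every WT library (log2 fold change 1.72, 0.22 to 3.23, edgeR adjusted p = 0.78), and UCP1 KO libraries had 117 to 641 CPM. The stress response list of 15 genes had a median of 0.18 in dKO and 0.37 in UCP1 KO, the clock list of 17 genes medians of -0.33 and -0.11 (0.14 in dKO without the libraries with lymph node RNA), and the matrix list of 18 genes medians of -0.01 and -0.19. In the stress list 2 of 15 genes (13.3%, beside 0.656%) were higher in dKO without overlap. Once libraries with lymph node RNA were omitted, 4 of the 18 matrix genes were higher at an unadjusted p under 0.05 (Mmp12, Timp1, Col6a3 and Mmp3), 2 of the 15 stress genes were, and 0 of either list were called.

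**Figure D2:**
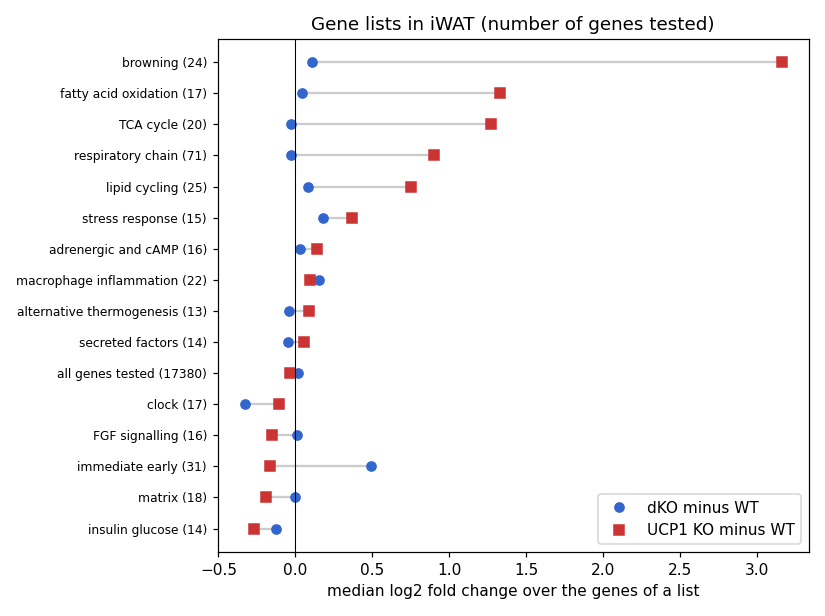
Median log2 fold change (x axis) of each gene list other than the cell type markers (y axis, number of genes tested in brackets) in iWAT for dKO minus WT (blue circles) and UCP1 KO minus WT (red squares). Over all libraries the dKO lists of browning and oxidation lie near the median of all genes, 0.02, and the immediate early list lies highest of those shown at 0.49.

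What remained of the UCP1 response was also read in genes chosen on other libraries, those of UCP1 KO and FGF21 KO. These groups differ in both genes, so the choice mixes UCP1 loss with FGF21 loss. Between UCP1 KO and FGF21 KO iWAT, 653 genes (3.76%) were called, 629 of them higher in UCP1 KO, and neither group shares a library with dKO or WT. Over the 629 genes the median log2 fold change was 1.31 between UCP1 KO and FGF21 KO and -0.01 between dKO and WT. From the lower to the upper quartile they ran from -0.09 to 0.09 in dKO against WT, and all genes from -0.13 to 0.17. Of the 629 genes, 304 were estimated above WT in dKO, 10 (1.59%) were higher and 13 lower at an unadjusted p under 0.05, and 2 were called, Cacna1a and AK049852. In UCP1 KO against WT, AK049852 had 0.75 and was not called. Of all 17380 genes, 9315 were estimated above WT, 3.15% were higher and 2.76% lower at that p, and 0.0173% were called. Without the libraries with lymph node RNA, an alternative added after seeing the data, the median of the 629 genes was 0.18 in dKO, with 84 (13.4%) higher and 5 lower at an unadjusted p under 0.05 and 0 called, beside 8.59% of all genes higher. The 5 genes with the largest difference between UCP1 KO and FGF21 KO were Fgf21, Bmp8b, A530050N04Rik, Sptlc3 and Elovl3. Bmp8b, a secreted factor of brown fat, had at most 0.0727 CPM in WT and 0.245 CPM in dKO, against 0.387 to 12.6 CPM in UCP1 KO. Sptlc3, a subunit of serine palmitoyltransferase, had at most 0.0289 CPM in WT and 0.171 CPM in dKO, against 0.207 to 7.90 CPM in UCP1 KO, and A530050N04Rik was at most 0.108 CPM in WT and 0.049 CPM in dKO. FGF21 KO held 4 libraries with lymph node RNA and UCP1 KO 1, a difference whose part in the choice of the 629 genes was not tested.

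Brown adipose tissue (BAT) of dKO differed from WT far more. In BAT of the same genotypes, 3323 of 15729 genes (21.1%) were called between dKO and WT, against 6 of 14407 in liver (0.0416%) and 8 of 15114 in muscle (0.0529%). Of the genes that UCP1 KO raised over FGF21 KO in BAT, 1863 were tested in iWAT. Their median for dKO against WT was 0.75 in BAT and 0.11 in iWAT, where 91 (4.88%, beside 3.15% of all genes) were higher at an unadjusted p under 0.05 and 1 was called (0.0173% of all genes). The 1613 genes lower there had medians of -0.35 in BAT and -0.03 in iWAT. In libraries that lacked lymph node RNA, the iWAT medians were 0.10, with 268 of 1838 genes (14.6%) higher at that p beside 8.59% of all genes, and -0.00.

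The immediate early genes, which encode transcription factors and signal proteins induced within minutes of a stimulus, formed the pathway list with the highest dKO median over all libraries, while the browning list was higher in those without lymph node RNA. Of the 31 tested, 13 (41.9%) were higher in dKO at an unadjusted p under 0.05, beside 3.15% of all genes, and 0 were lower. The libraries of 7 did not overlap (22.6%, beside 0.656%), and the list median was 0.49 in dKO and -0.16 in UCP1 KO. None was called by edgeR, whose smallest adjusted p was 0.076, while DESeq2 called Fosb, Egr1 and Fos, beside 0.0921% of all genes. Between UCP1 KO and dKO, 3 were called lower in UCP1 KO, namely Fosb, Egr1 and Klf6, beside 0.466% of all genes called, 5 of them lower. Without lymph node RNA, Atf3 had 1.48 in dKO and 1.58 in UCP1 KO against WT, where Fosb had 4.22 and -0.63. The promoters of Socs3 and Klf6, also on the list, hold no TGACG, the core of the cAMP response element, on either strand. Promoters of 4 members that do hold it are printed. They are the RefSeq sequences of GRCm38.p6, 250 bases before to 50 after the start, for Fosb (chr7:19309996-19310295, minus strand), Fos (chr12:85473640-85473939, plus strand), Junb (chr8:84978699-84978998, minus strand) and Atf3 (chr1:191183284-191183583, minus strand), with the cAMP response element core TGACG on either strand in capitals.
Fosb: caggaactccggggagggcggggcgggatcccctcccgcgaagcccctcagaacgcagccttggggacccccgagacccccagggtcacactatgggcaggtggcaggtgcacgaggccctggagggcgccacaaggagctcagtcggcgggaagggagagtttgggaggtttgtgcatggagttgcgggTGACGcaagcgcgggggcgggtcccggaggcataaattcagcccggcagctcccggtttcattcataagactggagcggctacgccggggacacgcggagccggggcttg
Fos: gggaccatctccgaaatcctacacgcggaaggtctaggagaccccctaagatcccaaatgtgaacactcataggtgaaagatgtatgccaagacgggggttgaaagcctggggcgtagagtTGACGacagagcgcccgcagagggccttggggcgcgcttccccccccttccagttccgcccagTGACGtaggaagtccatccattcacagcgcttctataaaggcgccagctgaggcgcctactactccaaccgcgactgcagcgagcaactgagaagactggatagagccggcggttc
Junb: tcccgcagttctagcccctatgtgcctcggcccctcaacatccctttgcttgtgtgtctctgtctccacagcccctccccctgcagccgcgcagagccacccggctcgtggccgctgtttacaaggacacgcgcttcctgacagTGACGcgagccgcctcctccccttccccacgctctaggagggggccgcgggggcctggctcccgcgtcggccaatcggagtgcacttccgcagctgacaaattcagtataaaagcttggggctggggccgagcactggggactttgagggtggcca
Atf3: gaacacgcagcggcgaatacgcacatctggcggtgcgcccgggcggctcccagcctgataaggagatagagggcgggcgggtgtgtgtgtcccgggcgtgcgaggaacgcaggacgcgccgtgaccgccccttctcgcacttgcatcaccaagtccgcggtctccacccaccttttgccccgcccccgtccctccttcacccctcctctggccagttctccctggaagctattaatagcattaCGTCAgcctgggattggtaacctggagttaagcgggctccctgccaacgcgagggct

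Of the 32 genes listed, 24 had a promoter in that table on a chromosome used here, and 15 of them (62.5%) held TGACG on either strand, against 23.0% of 27025 genes. The full palindrome TGACGTCA, which contains the core, was in 4 of the 24 (16.7%) against 2.03% of genes, and the CArG box bound by serum response factor was in 2 (8.33%) against 1.81%. Of the genes with the palindrome, Maff had a log2 fold change of 1.19 in dKO against WT without lymph node RNA. Btg2, Dusp1 and Ppp1r15a had 0.135, 0.248 and 0.024 there. A match describes the letters of these windows and does not mark a bound site, and whether it goes with a rise in dKO was not tested.

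Fosb, a partner of Jun proteins in AP-1, had 0.859, 2.08, 1.21, 2.01 and 1.02 CPM in WT and 2.35, 8.47, 11.5, 59.1 and 9.39 CPM in dKO. The 2 groups did not overlap, and dKO 4 stood far above the rest. The log2 fold change was 3.66 (95% interval 2.31 to 5.0, edgeR adjusted p = 0.076), and it lay between 2.46 and 3.94 in 20 fits that each omitted 1 library, being called without dKO 1 (edgeR adjusted p = 0.00852). UCP1 KO libraries held 0.645 to 1.27 CPM, 4.41 lower than dKO on the log2 scale (edgeR adjusted p = 0.00278).

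Egr1, a zinc finger factor induced by growth factors, had 19.1, 43.2, 13.8, 21 and 19.2 CPM in WT and 70.9, 102, 57.1, 133 and 68.7 CPM in dKO. All dKO libraries were again above all WT libraries (log2 fold change 1.89, 1.17 to 2.62, edgeR adjusted p = 0.0996), and UCP1 KO was 2.37 below dKO (edgeR adjusted p = 0.00262). Fos had 4.88 to 7.49 CPM in WT and 12.3, 26.4, 10.6, 127 and 13.6 CPM in dKO (2.59, 1.31 to 3.87, edgeR adjusted p = 0.387). Its dKO libraries were above those of WT, and dKO 4 was again the highest. Egr2, a relative of Egr1, had 2.80 to 8.14 CPM in WT and 10.8 to 20.1 CPM in dKO, without overlap (1.44, 0.58 to 2.30, edgeR adjusted p = 0.554). Cyr61, a matrix protein of the CCN family, had 14.0 to 29.5 CPM in WT and 21.8 to 63.3 CPM in dKO, and Fosl1, another Fos protein, at most 0.775 CPM in WT and 0.838 to 6.83 CPM in dKO. Junb, an AP-1 partner of Fos, had 14.7 and 14.9 CPM in the WT libraries with lymph node RNA and 25.5 and 24.0 CPM in those of dKO. Without that RNA it had 4.69 to 6.09 CPM in WT and 12.9 to 28.2 CPM in dKO, and within each set the dKO libraries were above those of WT. Jun did not follow, with 31.2 to 46.2 CPM in WT and 31.0 to 49.8 CPM in dKO.

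Without dKO 4, which had the highest Fos, Fosb and Egr1 and also the highest epithelial markers, 11 of the 31 genes were higher at an unadjusted p under 0.05 and the median was 0.46. The number ran from 10 to 14 over all 20 libraries left out. In the libraries without lymph node RNA 17 of the 31 were higher, where the share of all genes was 8.59%, and the median was 0.63. Junb and Ier2 lie 1.68 and 1.37 Mb from Ucp1, and the part of their position in these values was not tested.

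**Figure D3:**
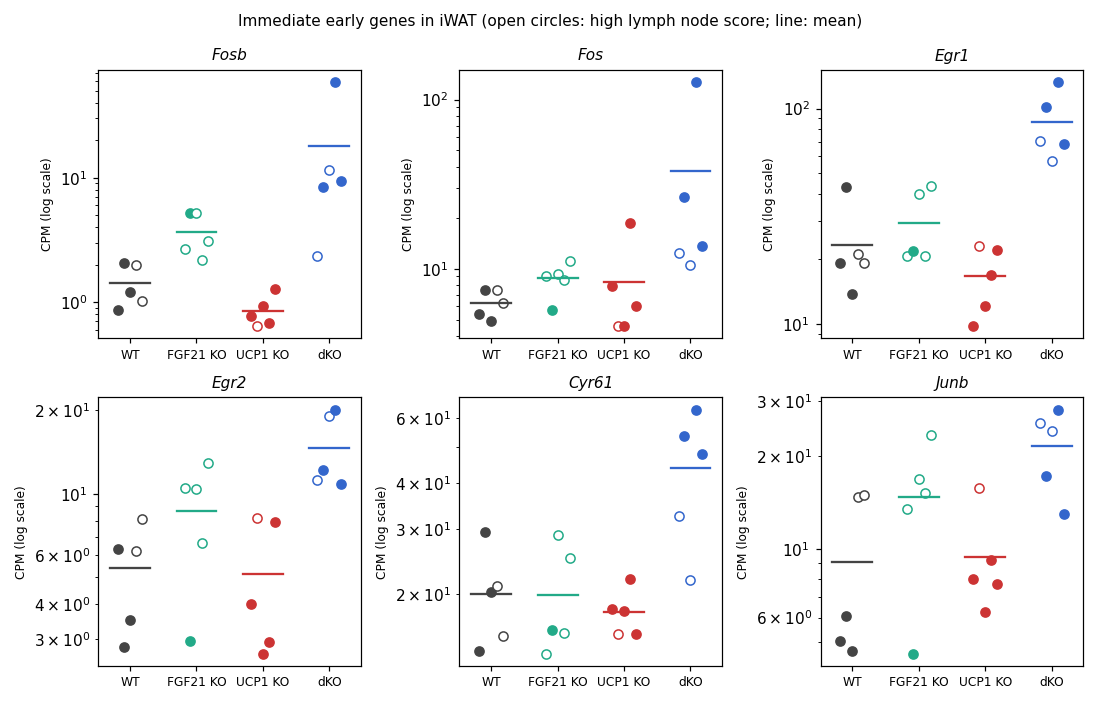
CPM (log axis) of 6 immediate early genes in each of the 20 iWAT libraries by genotype, with a line at the mean of 5 libraries and open circles for libraries with a high lymph node score. The dKO libraries lie above the WT libraries without overlap for Fosb, Fos, Egr1 and Egr2, and dKO 4 is the highest point of Fosb and Fos.

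Other genes separated dKO from WT library by library. The rule took genes without overlap, with a mean of at least 1 CPM in the higher group, and passed over clone names. Of the 12 such genes that lay higher in dKO with the smallest p, 11 are named here: Cacna1a, Fosb, Itgad, Egr1, Usp38, Ralgds, Trim29, Dock5, Peg10, Plch2 and Rilpl2. Itgad, the integrin alpha D chain carried by some macrophages, had 0.216 to 1.21 CPM in WT and 23.2, 65.9, 1.57, 1.32 and 22.9 CPM in dKO. Libraries dKO 3 and dKO 4 lay just above the WT range and the other 3 far above it (log2 fold change 5.30, 3.34 to 7.26, edgeR adjusted p = 0.076). Ralgds, an exchange factor for Ral proteins, had 51.4 to 62.7 CPM in WT and 69.3 to 80.2 CPM in dKO, a small shift of 0.43 with a narrow interval (0.24 to 0.62). Trim29, a gene of squamous epithelia among other tissues, had 0.339 to 0.720 CPM in WT and 1.04 to 1.91 CPM in dKO. The log2 fold changes of Dock5, Peg10, Plch2 and Rilpl2 were 0.71, 1.38, 1.54 and 0.58, with edgeR adjusted p from 0.365 to 0.387. DESeq2 called Itgad, Ralgds, Trim29, Dock5, Peg10 and Rilpl2, with adjusted p up to 0.00983, and gave Plch2 an adjusted p of 0.011.

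The 12 genes that lay lower by the same rule were Mri1, St3gal4, Gstt2, Rell1, Msx1, Slc16a9, Smad9, Ctns, Asgr2, Enox2, Tctn1 and Il15. St3gal4, a sialyltransferase, had 45.2 to 84.0 CPM in WT and 25.9 to 37.3 CPM in dKO (log2 fold change -0.95, -1.37 to -0.52, edgeR adjusted p = 0.28). FGF21 KO libraries had 33.2 to 39.2 CPM and UCP1 KO libraries 28.0 to 70.0 CPM. Gstt2, a glutathione transferase, had 41.1 to 59.9 CPM in WT and 22.3 to 38.7 CPM in dKO, and FGF21 KO libraries were again low at 20.7 to 34.6 CPM. Smad9, a mediator of BMP signals, had a log2 fold change of -1.24 (interval -1.98 to -0.49) and Msx1, a homeobox factor downstream of BMP, one of -0.84 (-1.31 to -0.36). The log2 fold changes of the other 7 besides Mri1 lay between -0.85 and -0.27, and their edgeR adjusted p was at least 0.483.

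Macrophage genes lay on both sides of WT over all libraries. Of 22 tested, 5 were higher in dKO (Ccl2, Lgals3, Il6, Gpnmb and Trem2) and 2 lower (Cd163 and Clec10a) at an unadjusted p under 0.05, beside 3.15% and 2.76% of all genes, and 0 were called. With 1 library left out, the number higher ran from 3 (without dKO 2 or dKO 4) to 7 (without WT 5). The shares of all genes higher were 2.28%, 3.81% and 4.38% there. The number lower was 0 without WT 1, WT 3, dKO 1 or dKO 3. Without the libraries with lymph node RNA 6 of 21 were higher and 0 lower, where 8.59% of all genes were higher, and Lgals3 (1.29, edgeR adjusted p = 0.0339) and Gpnmb (2.0, edgeR adjusted p = 0.0441) came nearest to a call. Gpnmb, a glycoprotein of lipid-laden macrophages, had 29.2 to 42.7 CPM in WT and 47.7, 152, 47.2, 160 and 77.2 CPM in dKO, without overlap (log2 fold change 1.5, 0.24 to 2.75). Trem2, a lipid receptor of the same cells, had a log2 fold change of 1.61 and Ccl2, a chemokine that draws monocytes, one of 1.96. Mmp12, macrophage elastase, had 2.86 to 20.9 CPM in WT and 25.8 to 120 CPM in dKO (2.93, 1.00 to 4.87, edgeR adjusted p = 0.65), and its log2 fold change was 4.47 without the libraries with lymph node RNA (edgeR adjusted p = 0.0377). Cd163, a scavenger receptor of resident macrophages, had 75.8 to 236 CPM in WT and 29.0 to 121 CPM in dKO (-1.12, -2.14 to -0.10). Against the same WT libraries UCP1 KO had 1.32 for Gpnmb, 1.48 for Trem2 and 2.41 for Mmp12. The general markers Adgre1 and Cd68 had log2 fold changes of -0.12 and 0.28.

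None of the 3 genes called between dKO and WT overlapped between the groups. Mri1 (chromosome 8, 84249906 to 84257326), an enzyme of the methionine salvage pathway, had 15.5, 16.8, 15.8, 17.9 and 19.1 CPM in WT and 9.83, 8.01, 8.33, 8.21 and 7.68 CPM in dKO. Its log2 fold change was -1.02 (95% interval -1.23 to -0.80; edgeR adjusted p = 0.000175) and stayed called in each of the 20 fits that left out 1 library. Cacna1a (chromosome 8, 84388440 to 84640246), the pore subunit of a P/Q-type calcium channel, had 7.42, 4.96, 6.58, 5.85 and 5.21 CPM in WT and 20.2, 32.0, 12.8, 21.7 and 31.8 CPM in dKO. Its log2 fold change was 1.98 (1.49 to 2.47, edgeR adjusted p = 0.000933) and it was also called in all 20. In a fit of the 10 dKO and WT libraries alone the edgeR adjusted p was 0.0433 for Mri1 and 0.11 for Cacna1a, and in the libraries without lymph node RNA it was 0.0215 and 0.0158, so both lost the call there at like fold changes. In UCP1 KO against WT these genes had -1.06 and 1.73, and UCP1 KO did not differ detectably from dKO (-0.05 and -0.25). They were also the 2 genes called between dKO and FGF21 KO, at -1.14 and 2.04.

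AK049852, listed under the name of a cDNA clone with no position in the annotations used here, had 0.674 to 1.21 CPM in WT and 0.0242 to 0.196 CPM in dKO. The log2 fold change was -3.17 (-4.07 to -2.27, edgeR adjusted p = 0.00409). FGF21 KO libraries were as low, at 0.0386 to 0.156 CPM, and UCP1 KO libraries held 1.21 to 2.09 CPM, so its low level went with the loss of FGF21 in both genotypes. The call was lost in 6 of the 20 fits, those without WT 1, WT 2, WT 4, WT 5, dKO 1 or dKO 3 (edgeR adjusted p at most 0.0234), in the fit of the 10 libraries (0.194) and without lymph node RNA (0.0833). Usp38, a deubiquitinase gene on chromosome 8 (80980733 to 81014928), had 27.2 to 45.8 CPM in WT and 52.1 to 58.9 CPM in dKO, 0.66 higher on the log2 scale (0.38 to 0.93, edgeR adjusted p = 0.193). DESeq2 called it (adjusted p = 0.00323), and so did edgeR in the libraries without lymph node RNA, where Usp38 was the 1 gene called (adjusted p = 0.00514).

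**Figure D4:**
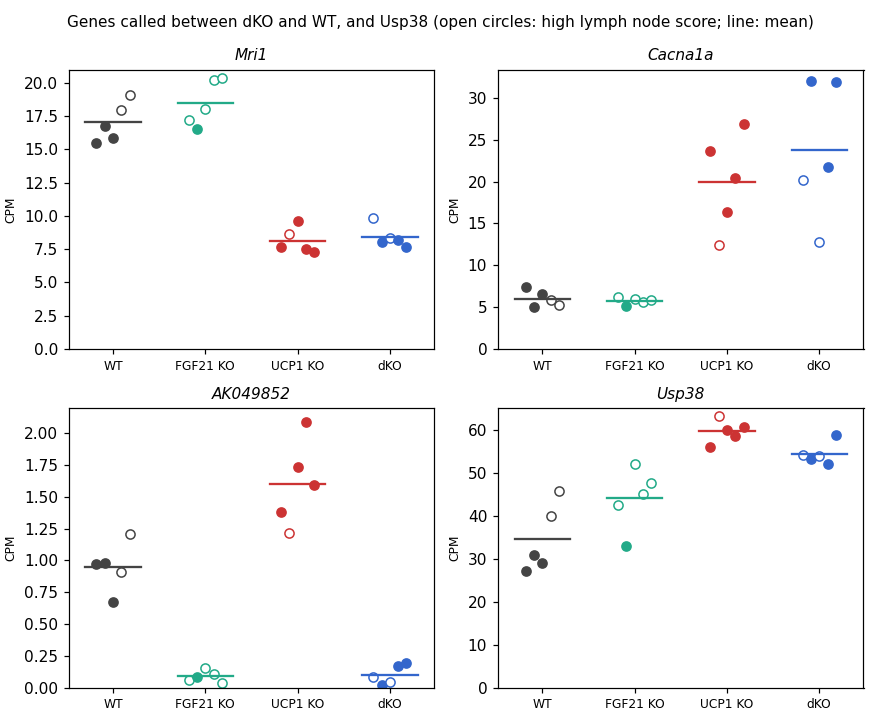
CPM of Mri1, Cacna1a, AK049852 and Usp38 in each of the 20 iWAT libraries by genotype, with a line at the mean of 5 libraries and open circles for libraries with a high lymph node score. Mri1 and Cacna1a separate both genotypes without UCP1 from the other two, and AK049852 separates both genotypes without FGF21.

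Mri1, Cacna1a and Usp38 all lie near Ucp1. A gene with any part inside a window was counted in it. Within 10 Mb of Ucp1, 130 genes were tested, of which 2 were called (0.0173% of all genes), 23 (17.7%) had an unadjusted p under 0.05 and 9 (6.92%) had dKO and WT libraries that did not overlap, against 1.17% of all genes. Within 10 Mb of Fgf21 on chromosome 7, 166 genes were tested, 0 were called, 15 (9.04%) had an unadjusted p under 0.05 and 5 (3.01%) did not overlap. Of all genes, 3.15% were higher and 2.76% lower at that p. Among libraries lacking lymph node RNA, 26.0% of 123 genes near Ucp1 had such a p, beside 13.5% of all genes, and the window of Fgf21 was not computed there. The 9 genes near Ucp1 were Hmox1, Usp38, Il15, Gipc1, Adgre5, Mri1, Cacna1a, Nacc1 and Wdr83os, of which Hmox1, Gipc1, Adgre5 and Nacc1 are named after their values were seen. Their log2 fold changes in dKO and in UCP1 KO against the same WT libraries were 1.11 and 1.19 for Hmox1, 0.40 and 0.55 for Gipc1, -0.66 and -0.51 for Il15 and -0.41 and -0.43 for Wdr83os. Adgre5 had 0.50 in dKO and 0.00 in UCP1 KO, and Nacc1 0.19 and 0.04. Whether the deleted allele itself or flanking sequence bred along with it goes with these values cannot be told apart in this design.

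Of Mri1, Cacna1a, AK049852 and Usp38, Cacna1a and AK049852 passed a test of the difference between tissues and the other two did not. Mri1 was lower in dKO than in WT in BAT as well (log2 fold change -0.83, edgeR adjusted p = 1.79e-05), and its estimates were -0.76 in liver and -0.35 in muscle (edgeR adjusted p = 0.0757 and 0.0227). Cacna1a was called higher in liver (2.75, edgeR adjusted p = 0.00162), had 0.81 in muscle and -0.36 in BAT, and the difference between iWAT and BAT was itself called (2.34, edgeR adjusted p = 1.26e-06 for the interaction over 80 libraries). AK049852 had -0.71 in BAT, and iWAT differed from BAT by -2.45 (edgeR adjusted p = 0.000449). Usp38 had 0.68 in BAT, where it was called (edgeR adjusted p = 0.00022), and iWAT differed from BAT by -0.02. Wdr83os, Gadd45gip1 and Gm38426, all near Ucp1, were called between dKO and WT in BAT and in muscle, and in iWAT their log2 fold changes were -0.41, -0.13 and 0.26 without a call. For Gm38426 iWAT differed from BAT by -2.59 (edgeR adjusted p = 0.00055).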

How the data were processed

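RNA was measured by poly(A)-selected, strand-specific, paired-end sequencing in 80 libraries of 4 tissues and 4 genotypes, with 5 libraries each. Per the labels and methods, the authors aligned reads with STAR to mm10 and counted them per gene with HTSeq, and the deposited values are whole read counts per gene symbol without normalization. The strand option is not given in the sources used here. Labels gave tissue and genotype but no link between libraries of a mouse, and library numbers follow deposition order, so p-values measure the spread between these samples. A row that names no gene held at most 2.43e-05% of a WT or dKO library and was left out. No pair of the 20 iWAT libraries was identical.

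A gene was tested if its 20 iWAT counts reached more than 15 in some library, summed to more than 75 and were 0 in at most 10. TMM factors and the quasi-likelihood F test of edgeR 4.0.16 (R 4.3.3) were used with 1 mean per genotype, and genes were called at an adjusted p under 0.01. CPM divide counts by the TMM-scaled library size. Intervals are 95% intervals from the standard error implied by the F statistic. DESeq2 1.42.0, the tool of the methods, was an alternative, as were RLE factors, no filter, a fit of the 10 libraries, score covariates, and leaving out libraries. The code was tested on simulated data. Positions come from GENCODE M21, which matched 23351 symbols, and RefSeq GRCm38.p6, which added 811 of 32764.

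The members and lists were chosen with earlier results of these data known. Genes named are the deleted genes, all genes called, the 12 rises and 12 falls with the smallest p among genes without overlap and a mean of at least 1 CPM in the higher group, members of the lists by the study's figure or smallest p, neighbours of Ucp1 or Fgf21 that 2 or more tissues called, and the 5 largest differences between UCP1 KO and FGF21 KO. A gene that the rule names is not reported here. Others were named after their values were seen.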

Additional observations from a re-analysis of the deposited data

Results flagged for a closer look

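Single libraries stood apart from the other 4 of their genotype, by Dixon's test at the 95% level, which chance passes in about 1 of 20 groups. The test was run in WT and in dKO for many of the named genes, so some flags are due to chance alone. Ucp1 was low in dKO 1 at 4.004 CPM and A530050N04Rik high in dKO 4 at 0.049 CPM, a level near the floor. The keratins Krt8 and Krt18 were high in dKO 4 at 9.92 and 12.4 CPM. In WT 5, Tctn1 was low at 19.1 CPM and Mmp12 high at 20.9 CPM.

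The response of 2 called genes differed between tissues by an interaction test over the 80 libraries. For AK049852, dKO minus WT in iWAT was -2.45 from that in BAT and -2.88 from that in muscle on the log2 scale (edgeR adjusted p = 0.000449 and 0.00131). For Cacna1a, iWAT was 2.34 above BAT (edgeR adjusted p = 1.26e-06).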

How the results depend on the processing

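The count of 3 genes called between dKO and WT was also 3 with RLE factors, without a low-count filter, with a covariate for skeletal muscle and at an adjusted p under 0.05. It was 16 in DESeq2, 4 with a covariate for lymph node RNA, 1 in the libraries with a lymph node score at or under 4, and 0 in a fit of the 10 dKO and WT libraries alone, where 1028 genes had an unadjusted p under 0.05 and 1 an adjusted p under 0.05. At an adjusted p under 0.05 the count was 66 in DESeq2, 164 with the lymph node covariate and 25 in the libraries with a score at or under 4, and at an unadjusted p under 0.05 it was 1027 over all libraries, 1275, 3252 and 2169 in that order. Omitting 1 of the 20 libraries at a time gave 2 to 3. The count for UCP1 KO against WT was 597 in DESeq2 and 821 with the lymph node covariate, and that for UCP1 KO against dKO 535 and 748. The browning median of dKO against WT was 0.81 among libraries with little lymph node RNA and ran from -0.10 to 0.21 over the libraries left out. The immediate early count of 13 ran from 10 to 14, and the median of dKO against WT over the 629 genes from -0.09 to 0.09 (0.18 in the libraries with a score at or under 4). No paired analysis was possible because the labels give no replicate numbers.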
